A study of Rattus norvegicus with 6 samples.

Results

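The transcripts described here are 10 messenger RNAs of the rat mitochondrial genome, each coding for a core subunit of the respiratory chain or of ATP synthase. They were measured by mRNA sequencing in primary rat bone marrow stromal cells (BMSCs), adherent marrow cells that can form bone, fat and cartilage. The members were taken by Ensembl gene ID. They are Mt-nd1, Mt-nd2, Mt-nd3, Mt-nd4 and Mt-nd5 of complex I, Mt-cyb of complex III, Mt-co1, Mt-co2 and Mt-co3 of complex IV, and Mt-atp6 of complex V. All 10 were found among the 32883 gene rows of the deposited count table. The table holds IDs without names, and the pairs of ID and symbol could not be checked against a table here. The members' rows do stand in the table in the order in which these genes follow each other on the mitochondrial genome, for 10 of 10.

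The 3 samples of the Hypoxia group were kept at 1% O2 for 7 days. The 3 Control samples were kept for 7 days in normal culture, whose oxygen percentage the labels do not give. Both groups grew in alpha-MEM with 10% fetal bovine serum. The labels give neither the strain nor the number of animals. The p-values therefore set the group difference against the scatter among these samples only, which may be technical scatter. Whether the groups were cultured or prepared in separate batches is not stated either, and a batch effect cannot be told apart from oxygen. One protocol text speaks of muscle as the source of RNA, whereas the source name and the cell type give BMSCs. Stromal, blood and muscle markers could not be looked up without gene names, so the labelled cell type was not checked.

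Mitochondrial genes are transcribed inside the organelle as long precursors that span many genes and are then cut into shorter messages, not all of which hold a single gene. Each message is thus made together with its neighbours and can then have its own stability. Electrons enter the chain at complex I from NADH, pass through complex III to cytochrome c, and reach oxygen at complex IV, while complex V uses the resulting proton gradient to make ATP. Most other subunits of these complexes are encoded in the nucleus and are not analysed here.

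Depth ranged from 13273781 to 18533675 reads assigned to genes per library, with the Hypoxia libraries deeper than the controls. The members were among the deeply counted genes, and the smallest count of any member in any library was 2630 reads, for Mt-nd4 in Hypoxia replicate 3, where counting alone gives a coefficient of variation of 1.95%. Control replicate 2 stood apart from the other controls, with a mean chi-square per gene of 6.48 and 6.57 against them, compared with 1.51 between those 2 libraries. It also held more mitochondrial message. Of the 10 members, 9 had their highest control value in Control replicate 2. On the log2 CPM scale, these 9 lay 0.02 to 0.20 above the mean of the other controls, and Mt-nd4 lay 0.14 below it. In the Hypoxia group, replicate 2 was the highest library for 10 of 10 members. Results are therefore given with and without Control replicate 2 where it moves them.

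Together the 10 transcripts took a smaller share of the reads at 1% O2. They held 2.95%, 3.27% and 2.96% of all reads assigned to genes in Control replicates 1, 2 and 3, and 2.57%, 2.76% and 2.64% in Hypoxia replicates 1, 2 and 3. The 3 Hypoxia libraries all lay below the lowest control. The 95% Wilson intervals of these shares were at most 0.019 percentage points wide, covering counting error only. The mean share was 3.06% ± 0.18 in controls and 2.66% ± 0.10 at 1% O2 (SD, n = 3 each), a ratio of 0.869. Without Control replicate 2 the ratio was 0.899. In bulk RNA, less mitochondrial message in each cell and fewer cells rich in it cannot be told apart. No p-value is given for this sum, since its members were chosen as a group.

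The size of that difference depended on how libraries were scaled. CPM are read counts brought to a common library size with TMM factors, which set the bulk of genes to no change. In these units the 10 members summed to 28707, 31590 and 28732 CPM in the controls and to 26471, 28399 and 27374 CPM at 1% O2. The groups again did not overlap, with the highest Hypoxia library close below the lowest control, and the ratio of the means was 0.924. Without Control replicate 2 it was 0.955. The median log2 fold change of all tested genes was 0.0025 with TMM factors and -0.09 with library totals alone.

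**Figure D1:**
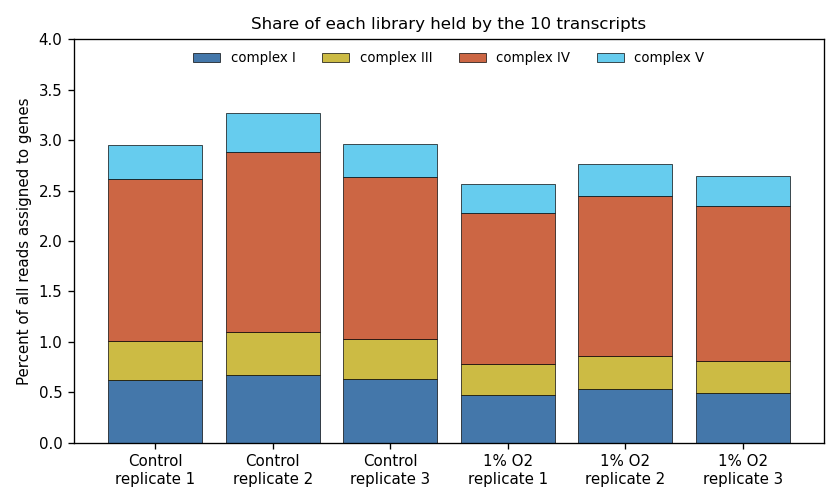
Percent of all reads assigned to genes (vertical axis, from 0) that the 10 transcripts held in each of the 6 libraries, stacked by respiratory complex. The Hypoxia bars reach 2.57% to 2.76%, all below the control bars at 2.95% to 3.27%.

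Complex I and complex III transcripts passed the test as lower at 1% O2, and those of complexes IV and V did not. The split was not sharp. Mt-nd5 of complex I had a log2 fold change of -0.16 ± 0.05 (SE), near the -0.12 of Mt-co2, Mt-co3 and Mt-atp6. Each of the 12702 tested genes was compared by edgeR's quasi-likelihood test with Benjamini-Hochberg adjustment over all of them and a threshold of 0.05. All 10 members passed the low-count filter. Of these, 6 were lower and 0 were higher, against 21.9% lower and 23.1% higher among all tested genes. Among the 692 genes at least as abundant as the least abundant member, 30.1% were lower and 40.6% higher. At an unadjusted p under 0.05, edgeR gave 8 lower members and 0 higher ones, against 25.5% lower and 26.7% higher among all tested genes. DESeq2 called 6 members lower and 0 higher, against 17.4% and 18.6% of all tested genes. The counts by limma-voom were 7 and 0, against 21.9% and 23.2%. The median log2 fold change was -0.21 over the 10 members and 0.0025 over all tested genes. For 8 of the members the 2 groups had no overlap in CPM, with 1% O2 lower in each. Over all tested genes, 27.4% were lower and 28.2% higher at 1% O2 without overlap.

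The 5 complex I transcripts were all past the threshold, and they differed among themselves in the size of the fall. Mt-nd1 (ENSRNOG00000030644) codes for a membrane subunit next to the site where ubiquinone is reduced. Its level was 1786, 2001 and 1758 CPM in the controls and 1451, 1603 and 1483 CPM at 1% O2. Every Hypoxia library lay below every control, and the log2 fold change was -0.29 ± 0.05 (SE) (adjusted p = 0.000635, edgeR). Mt-nd2 (ENSRNOG00000031033) codes for one of the proton-pumping membrane subunits. It had 1714, 1866 and 1700 CPM in the controls and 1404, 1540 and 1466 CPM at 1% O2, again without overlap. Its log2 fold change was -0.26 ± 0.05 (adjusted p = 0.000609, edgeR). The changes of these neighbours on the genome differed by less than the SE of either.

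Mt-nd3 (ENSRNOG00000033615), a small membrane subunit, was counted less deeply. Its controls had 235, 270 and 240 CPM, and its Hypoxia libraries 186, 196 and 193 CPM. The groups were well apart, and the fitted level fell by 22.9%, a log2 fold change of -0.37 ± 0.05 (adjusted p = 7.62e-05, edgeR). Mt-nd5 (ENSRNOG00000029971), another proton-pumping subunit, had 1992, 2007 and 1973 CPM in the controls. Its values at 1% O2 were 1658, 1880 and 1800 CPM. The controls of Mt-nd5 had an SD of 16.7 CPM, whereas the Hypoxia libraries had an SD of 112 CPM. The log2 fold change was -0.16 ± 0.05 (adjusted p = 0.0115, edgeR). Without Hypoxia replicate 1, its lowest library, the log2 fold change was -0.11 and the adjusted p was 0.0703, so the call was lost.

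Mt-nd4 (ENSRNOG00000029707), also a proton-pumping subunit, showed both the largest fall among the 10 and the widest spread relative to its level. Whether its count was affected by reads that map to several places or to overlapping genes was not tested. It had 286, 316 and 424 CPM in Control replicates 1, 2 and 3, and 210, 251 and 183 CPM in Hypoxia replicates 1, 2 and 3. Control replicate 3 was the high library here, 0.49 log2 units above the mean of the other controls, while it was not raised for any other member. The fitted level fell by 37.3%, a log2 fold change of -0.67 ± 0.12 (adjusted p = 0.000594, edgeR). Without Control replicate 3 it was -0.49 (adjusted p = 0.00189, edgeR). With robust dispersion estimates, which shrink genes of wide spread less, the fold change was the same but the adjusted p was 0.0608, so the call was lost.

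Cytochrome b, the product of Mt-cyb (ENSRNOG00000031766), carries the haem groups through which complex III passes electrons from ubiquinol. Its transcript had 3842, 4159 and 3834 CPM in the controls and 3136, 3404 and 3238 CPM at 1% O2. The highest Hypoxia library lay well below the lowest control. The fitted level fell by 17.4%, a log2 fold change of -0.28 ± 0.05 (adjusted p = 0.000253, edgeR). Its change differed from that of Mt-nd1 by less than the SE of either, with Mt-nd1 the first and Mt-cyb the last of the members in gene order. Without Control replicate 2 the log2 fold changes of Mt-nd1, Mt-nd2, Mt-nd3 and Mt-cyb were smaller, at -0.23, -0.21, -0.31 and -0.23. All of them stayed past the threshold.

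**Figure D2:**
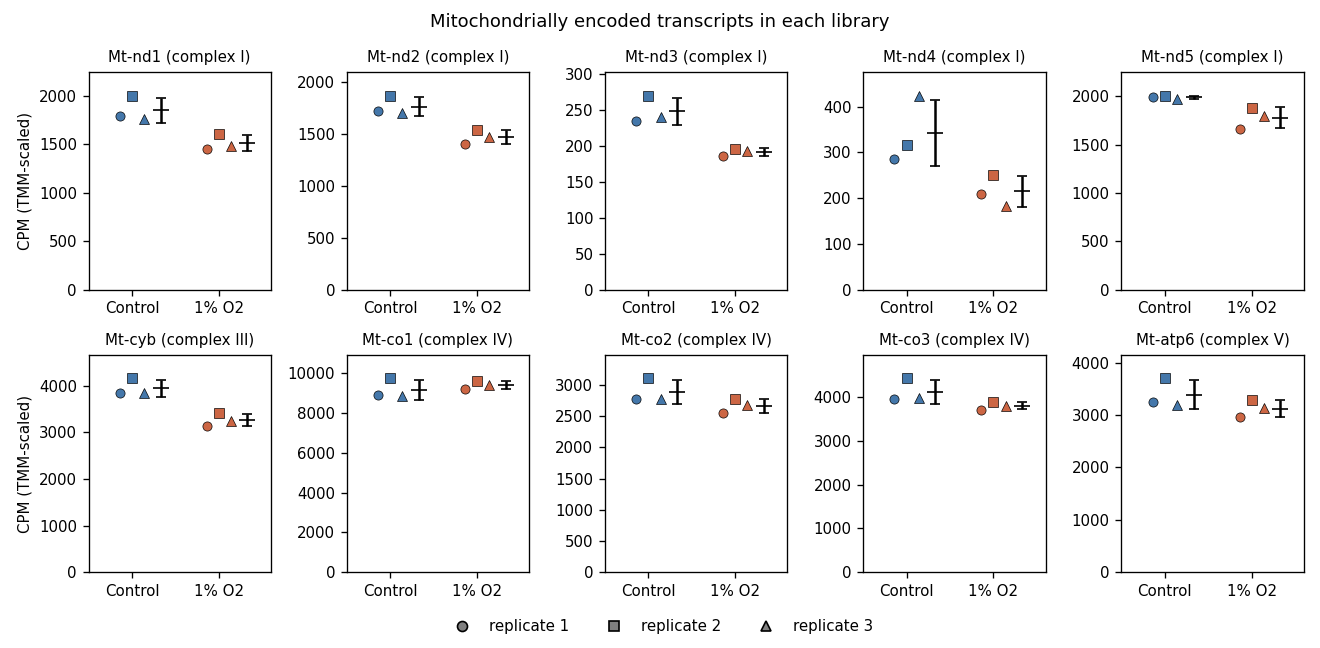
TMM-scaled CPM of each of the 10 transcripts (vertical axes, from 0, scaled per panel) in control (blue) and 1% O2 (orange) libraries, with the marker shape giving the replicate number and the black bar the mean ± SD of 3 libraries. Mt-nd1, Mt-nd2, Mt-nd3, Mt-nd4, Mt-nd5, Mt-cyb, Mt-co2 and Mt-co3 are lower in all 3 Hypoxia libraries than in any control. For Mt-co2 the groups almost meet, and Mt-co1 and Mt-atp6 overlap.

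The transcripts of complex IV, the cytochrome c oxidase that reduces oxygen to water, gave 0 of 3 calls. Mt-co1 (ENSRNOG00000034234) codes for the subunit that holds the oxygen-binding site. Its controls had 8899, 9758 and 8889 CPM, and its Hypoxia libraries 9235, 9618 and 9429 CPM. The Hypoxia values all lay between the lowest and the highest control, so the groups overlapped. The log2 fold change was 0.04 ± 0.04, with a 95% interval of -0.06 to 0.13 (adjusted p = 0.506, edgeR). This interval leaves out a fall as large as that of Mt-cyb. The sign of Mt-co1 was negative, at -0.05, with library totals alone, and without Control replicate 2 it was higher at 1% O2, by 0.09 on the log2 scale (adjusted p = 0.00639, edgeR).

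Mt-co2 (ENSRNOG00000030371) codes for the subunit that takes electrons from cytochrome c. It had 2778, 3106 and 2777 CPM in the controls and 2544, 2776 and 2674 CPM at 1% O2. The groups met almost exactly, with the highest Hypoxia library just under the lowest control. Its log2 fold change was -0.12 ± 0.05 (95% interval -0.22 to -0.01, adjusted p = 0.0775 by edgeR). Mt-co3 (ENSRNOG00000030700), the third core subunit of complex IV, had 3946, 4429 and 3974 CPM in the controls and 3714, 3876 and 3800 CPM at 1% O2. These values did not overlap either. The log2 fold change was -0.12 ± 0.05 (95% interval -0.22 to -0.02, adjusted p = 0.0597 by edgeR).

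Mt-atp6 (ENSRNOG00000031979) codes for the membrane subunit that forms the proton path of ATP synthase. Its levels were 3255, 3704 and 3201 CPM in the controls and 2956, 3281 and 3133 CPM at 1% O2, so that Hypoxia replicate 2 exceeded 2 of the controls. The log2 fold change was -0.12 ± 0.06 (95% interval -0.24 to 0.004, adjusted p = 0.107 by edgeR). Mt-co2, Mt-co3 and Mt-atp6 thus had the same fold change to 2 decimals. Without Control replicate 2 their log2 fold changes were -0.06, -0.06 and -0.05, with an SE of 0.03 each, and none was past the threshold. With library totals alone they were -0.20, -0.21 and -0.21, and all passed the threshold, with adjusted p of 0.00485, 0.00314 and 0.00889 by edgeR. All of them also passed with TMM factors and no low-count filter, with adjusted p of 0.03904, 0.02995 and 0.04167 by edgeR. The calls for these transcripts thus depended on the scaling and on the filter.

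**Figure D3:**
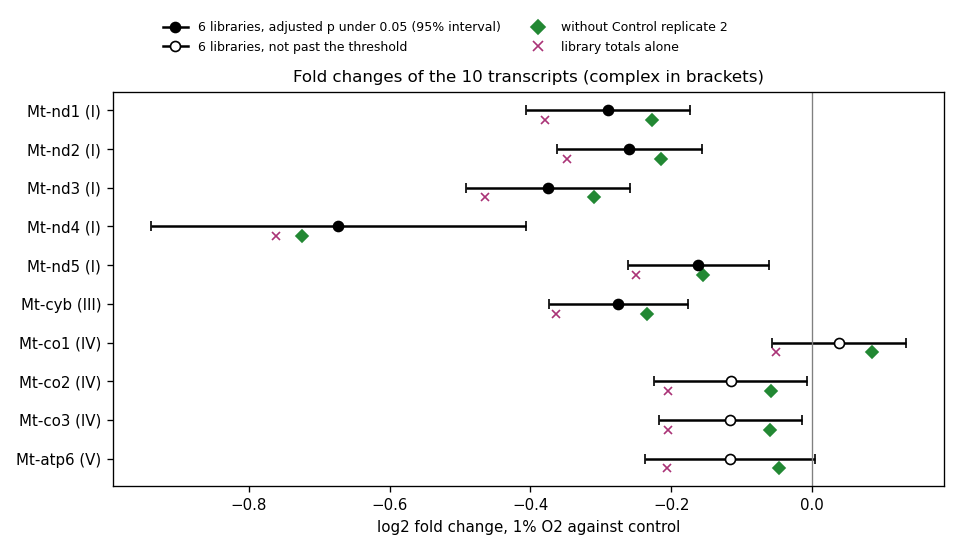
Log2 fold change of each transcript, 1% O2 against control (horizontal axis), with 95% intervals, filled circles for an adjusted p under 0.05 by edgeR and open circles otherwise. Diamonds leave out Control replicate 2 and crosses use library totals alone. The 6 filled circles run from -0.67 to -0.16, and the crosses lie 0.09 further left.

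The make-up of the mitochondrial message pool was compared within each library, which needs no scaling factor. Complex I transcripts made up 20.9%, 20.4% and 21.2% of the members' summed reads in the controls and 18.5%, 19.2% and 18.7% at 1% O2. The Mt-cyb share was 13.4%, 13.2% and 13.3% in the controls and 11.8%, 12.0% and 11.8% at 1% O2. Both shares were lower in all 3 Hypoxia libraries. Complex IV transcripts had a larger share, with 54.4%, 54.7% and 54.4% in the controls and 58.5%, 57.2% and 58.0% at 1% O2. The share of Mt-co1 went from 30.9% ± 0.05 to 34.4% ± 0.5 (SD, n = 3 each). The shares of Mt-co2, Mt-co3 and Mt-atp6 had means of 9.71%, 13.85% and 11.39% in controls and 9.71%, 13.84% and 11.38% at 1% O2. These 3 overlapped between groups, as did Mt-nd5, at 6.71% ± 0.32 and 6.48% ± 0.19.

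Across the 10 members, 5 had a lower share of the pool at 1% O2 without overlap, 1 had a higher share without overlap, and 4 overlapped. The like percentages over all tested genes were not computed for this denominator. In CPM, 27.4% of all tested genes were lower and 28.2% higher without overlap, so groups that do not overlap were common. Shares of a sum are tied to each other, so the gain of Mt-co1 lowers the share of every other member. With Mt-co1 taken out of the sum, Mt-cyb still had a share 1.13 percentage points lower at 1% O2, and Mt-co2, Mt-co3 and Mt-atp6 had shares 0.73, 1.045 and 0.85 points higher. The difference for complex I was then -1.50 points in place of -2.02. That for Mt-nd5 turned from -0.23 to 0.16 points, unlike the other complex I members, whose shares stayed lower.

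Ratios to Mt-co1 in the same library, a comparison added after the values were seen, have that transcript in common and need no scaling factor. There were 42.97 ± 0.31 reads of Mt-cyb per 100 reads of Mt-co1 in controls and 34.6 ± 0.7 at 1% O2 (SD, n = 3 each). Mt-nd1 had 20.1 ± 0.4 and 16.0 ± 0.5, Mt-nd2 had 19.2 ± 0.1 and 15.6 ± 0.4, and Mt-nd3 had 2.70 ± 0.06 and 2.03 ± 0.02 reads per 100 of Mt-co1. These 4 ratios were 0.752 to 0.813 times their control means. The ratios of Mt-co2, Mt-co3 and Mt-atp6 were each 0.899 times the control mean, and that of Mt-nd5 was 0.869 times it. Mt-nd4 had the lowest, at 0.608 times the control mean, with a control SD of 0.89 on a mean of 3.74 reads per 100 of Mt-co1. All 9 ratios were lower at 1% O2 without overlap between groups. Mt-co1 is the only member with a fold change above 0, so the direction of the 9 means follows from the choice of denominator, and no test is given. On the same denominator, 29.1% of all other tested genes were lower and 22.4% higher without overlap.

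**Figure D4:**
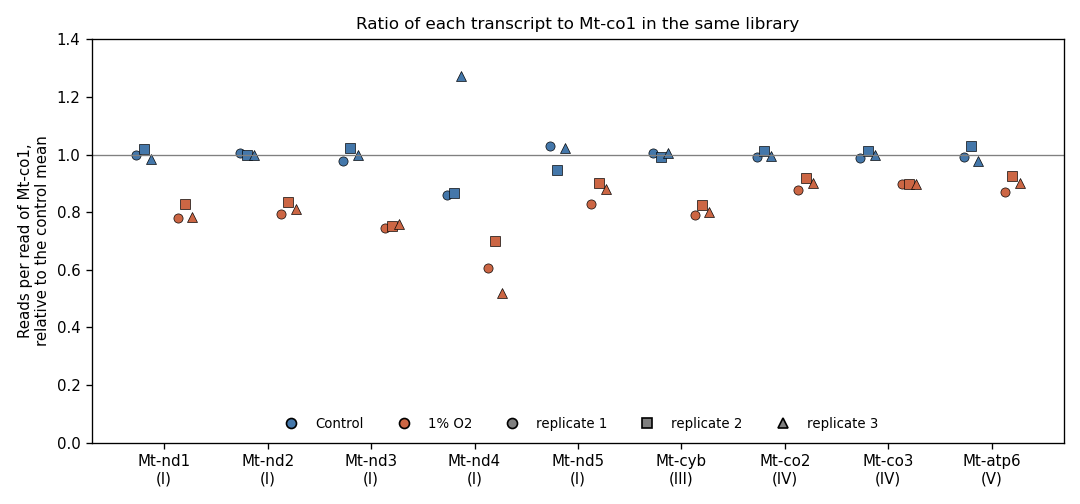
Reads of each transcript per read of Mt-co1 in the same library, divided by the control mean (vertical axis, from 0), for the 3 control (blue) and 3 Hypoxia (orange) libraries. All Hypoxia points lie below the control points of the same transcript, least so for Mt-co2, Mt-co3 and Mt-atp6 at 0.899 on average, and Mt-nd4 in Control replicate 3 stands apart from the other controls.

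Among 5033 other genes whose average log2 CPM reached 5, the one lower at 1% O2 whose log2 CPM followed the members' summed level most closely was ENSRNOG00000042094. Pearson's r over the 6 libraries was 0.978, as a description of libraries that fall into 2 groups. It had 76.5, 90.5 and 75.0 CPM in the controls and 61.3, 69.4 and 63.6 CPM at 1% O2. Replicate 2 was highest in both groups, as in the members' sum, which largely follows from picking the gene by its correlation with that sum. Among genes higher at 1% O2, the highest r was -0.143, for ENSRNOG00000016530, so none was positively correlated with the sum. These genes were picked as higher whereas the sum was lower at 1% O2, so a negative r was largely set by that choice.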

How the data were processed

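The authors deposited raw read counts per Ensembl gene ID for 6 libraries. HISAT2, featureCounts, DESeq2 and the build rn6 are named, per the submitters' processing notes. Not given in the sources used here are versions, annotation release, strand setting and the treatment of reads that map to several places. Mitochondrial sequence has near copies in the nuclear genome and some mitochondrial genes overlap, so the counts of single members are uncertain to the extent that reads were dropped or split. Libraries came from a stranded mRNA kit, per the labels' protocols. Gene lengths were not used here, so levels are not compared between genes. No sequences are shown, as none of the members had one in the tables used here.

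Library names in the labels matched the 6 columns, and 0 columns belonged to other samples. Counts were tested with edgeR 4.0.16 in R 4.3.3, using filterByExpr (minimum count 10, minimum total 15), TMM factors and 1 term for the group. The 95% intervals are the fold change plus and minus the SE times a t quantile, where the SE is the fold change divided by the square root of F. This rests on the edgeR fit and can be too small. CPM and shares were computed here. Fits were tested on simulated data. No pair of replicates agreed within sampling noise, with mean chi-square per gene of at least 1.51.

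Alternatives were median-of-ratios and upper-quartile factors, library totals, factors without the members, a replicate block, robust dispersion, 2 other filters on low counts, thinning, leaving out each library, and the tools DESeq2 1.42.0 and voom from limma 3.58.1. All 10 members are named, with 1 rise and 1 fall most correlated with their sum. The members, lists and rules were chosen with earlier results of these data known. Lists of nuclear subunits, mitochondrial transcription factors, hypoxia genes and cell type markers were not run, because IDs could not be named.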

Additional observations from a re-analysis of the deposited data

How the results depend on the processing

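The number of lower members, 6, stayed between 5 and 9 under all alternatives run. It was 9 with upper-quartile factors, library totals or no filter, where 24.8%, 31.4% and 14.3% of all tested genes were lower. It was 5 with robust dispersion or an adjusted p under 0.01 (22.1% and 15% of all tested genes), and 5 to 7 when 1 library was left out (17.3% to 22.7%). The number of higher members was 0 except without Control replicate 2. There it was 1 (Mt-co1), with 23.8% of all tested genes higher, so leaving out 1 library gave 0 to 1. Mt-nd1, Mt-nd2, Mt-nd3 and Mt-cyb kept their direction and call under all 17 alternative fits, with log2 fold changes of -0.38 to -0.23, -0.35 to -0.21, -0.46 to -0.31 and -0.36 to -0.23. Mt-nd4 lost its call with robust dispersion, and Mt-nd5 without Hypoxia replicate 1. Mt-co1 changed sign with library totals, at -0.051. Mt-co3 also passed the threshold with limma-voom, at an adjusted p of 0.0454, and without Control replicate 1, at 0.0442. The ratio of the summed share, 0.869, stayed between 0.851 and 0.899 when 1 library was left out and was 0.865 to 0.924 with other denominators. The ratio of summed CPM was 0.907 to 0.955 when 1 library was left out. With Mt-co1 left out of the sum, the differences in share of the members' reads were -1.50 points for complex I, -1.13 for complex III, 1.78 for complex IV and 0.849 for complex V. In place of these, the full sum gave -2.02, -1.41, 3.44 and -0.01.

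The replicate numbers were not taken as pairs, since no label says so. Same-numbered libraries correlated at -0.044, -0.051 and 0.005 in their deviations from the group means. The fit with a replicate block gave 6 lower and 0 higher members, against 20.1% lower and 21.6% higher among all tested genes. Depth was not limiting for the members, and thinning to the shallowest library left 6 lower (21.4% of all tested genes).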

Other observations

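The 30 rows of the count table that lie within 5 rows of a member, a window chosen after the values were seen, were examined by ID alone. Which genes these IDs name is not given in the sources used here. Of these rows, 18 had under 10 reads in every library and 8 were tested. By edgeR, with all 12702 tested genes in the adjustment, 3 of the 8 rose at 1% O2 and 2 fell. Among all tested genes, 23.1% were higher and 21.9% lower.

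The row 2 places before Mt-nd1, ENSRNOG00000043866, went the other way from the 9 members with a log2 fold change below 0. It had 254, 262 and 250 CPM in the controls and 464, 503 and 539 CPM at 1% O2, a log2 fold change of 0.975 ± 0.053 (SE) or 1.965-fold (adjusted p = 4.59e-09, edgeR). The row 4 places before Mt-nd1 rose by 0.66 ± 0.06, from 162, 185 and 154 to 254, 266 and 270 CPM. The third rise, 7 rows after Mt-nd1, rested on 39 to 82 reads per library, with a log2 fold change of 0.56 ± 0.15. None of these 3 rows overlapped between groups, and 28.2% of all tested genes were likewise higher without overlap.

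The 2 falls were those of ENSRNOG00000031053, the row just before Mt-nd4, and of the row just before Mt-atp6. ENSRNOG00000031053 had 513, 459 and 516 CPM in the controls and 333, 360 and 349 CPM at 1% O2, a log2 fold change of -0.515 ± 0.051 (adjusted p = 2.38e-06, edgeR). Its values in Control replicates 1 and 3 were close, whereas those of Mt-nd4 were 286 and 424 CPM. The row before Mt-atp6 had a log2 fold change of -0.32 ± 0.07.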
